A study of Mus musculus with 12 samples.

Results

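The transcripts described here are those of 8 complement genes: the 3 chains of C1q (C1qa, C1qb and C1qc), the central component C3, the alternative pathway genes Cfb and Cfp, and the anaphylatoxin receptors C3ar1 and C5ar1. They were taken by gene symbol from a table of 34948 named rows, all 8 had a row, and all 8 were among the 16546 genes that passed the filter on low counts. The data are bulk poly(A) RNA sequencing of mouse peritoneal macrophages, cells drawn into the peritoneum of 8-week-old male mice, per the labels, by an injection of 3% Brewer thioglycolate 3 days earlier. Ern1fl/fl libraries appear below as WT, and KO stands for the label Mac-Ern1KO. Ern1 encodes IRE1α, a stress sensor of the endoplasmic reticulum, and Mac-Ern1KO mice lack it in macrophages by their name. The labels name no Cre driver and no deleted exon. In the R300 groups the cells spent 2 h with platelets opsonized by R300, an antibody to platelet CD42. In the blank groups the treatment label reads Con, and the labels do not say whether uncoated platelets were present. The 2 genotypes and 2 treatments make 4 groups of 3 libraries, called biological replicates, so p-values measure the spread between those libraries.

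Complement is a cascade of proteins that tags particles for uptake. C1q binds antibody on a surface and starts the classical pathway. C3 is cleaved into C3b, which coats the particle, and C3a, a soluble signal. Factor B (Cfb) forms the convertase of the alternative pathway and properdin (Cfp) stabilizes it. The receptor for C3a is C3ar1, and C5ar1 is a receptor for C5a. The liver makes most circulating complement, whereas macrophages are a main source of C1q, make properdin as other leukocytes do, and carry both receptors.

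The 3 C1q genes form a cluster on the minus strand of chromosome 4 (GRCm38, the assembly that mm10 names), in the order C1qb, C1qc, C1qa from low to high coordinates. C1qb lies at chr4:136880129-136886187, C1qc at chr4:136889804-136893065 and C1qa at chr4:136895917-136898803. The span is 18675 bases, with gaps of 3616 bases between C1qb and C1qc and 2851 bases between C1qc and C1qa. C3 (chr17:57203970-57228136), Cfb (chr17:34856374-34862518), Cfp (chrX:20925454-20931555), C3ar1 (chr6:122847138-122856161) and C5ar1 (chr7:16246743-16259540) are also on the minus strand, and all 8 are protein coding. In GENCODE, 79.5% of the exonic bases of Cfb are shared with Gm20547, a gene model on the same strand that was not analysed here, so the counts of Cfb are uncertain.

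Promoter windows of 6 of the 8 genes, all but C1qa and Cfb, were found in RefSeq (GRCm38.p6, 250 bases before to 50 after the start). Those of C1qb and C1qc are shown because transcripts of the 3 C1q chains moved together, and that of C3ar1 because it is the gene that changed. Each is written 5′ to 3′ on the minus strand, and the capitals mark the core of the PU.1 motif (GAGGAA or its reverse complement) in the first 2 windows and TATAAA in the third.
C1qb promoter, chr4:136886151-136886450: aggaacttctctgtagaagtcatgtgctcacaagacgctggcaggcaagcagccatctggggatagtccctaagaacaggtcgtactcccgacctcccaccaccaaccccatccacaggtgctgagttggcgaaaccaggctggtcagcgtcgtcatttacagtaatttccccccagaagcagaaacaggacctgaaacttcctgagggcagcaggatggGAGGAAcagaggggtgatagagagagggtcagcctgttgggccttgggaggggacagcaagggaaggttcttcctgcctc
C1qc promoter, chr4:136892865-136893164: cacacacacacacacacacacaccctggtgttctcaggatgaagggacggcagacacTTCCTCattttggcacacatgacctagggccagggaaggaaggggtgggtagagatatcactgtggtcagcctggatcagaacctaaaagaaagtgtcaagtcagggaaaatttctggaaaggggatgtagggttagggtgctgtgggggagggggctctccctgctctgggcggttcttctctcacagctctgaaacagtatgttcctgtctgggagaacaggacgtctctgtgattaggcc
C3ar1 promoter, chr6:122856108-122856407: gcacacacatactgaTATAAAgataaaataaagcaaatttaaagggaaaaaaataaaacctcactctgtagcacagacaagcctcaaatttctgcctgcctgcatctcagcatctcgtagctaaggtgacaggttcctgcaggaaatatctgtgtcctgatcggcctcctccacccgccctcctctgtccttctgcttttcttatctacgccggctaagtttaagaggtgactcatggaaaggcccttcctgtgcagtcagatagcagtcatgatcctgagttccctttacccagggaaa
GAGGAA stood at -30 to -25 from the start in C1qb and, on the opposite strand, at -193 to -188 in C1qc. With Cfp, 3 of the 6 windows held it on either strand, against 28.3% of the 32817 promoters in the table. TATAAA was in 2 of the 6 windows (C3ar1, at -235 to -230, and C3, at 14 to 19), against 13.6% of promoters. The interferon element core GAAANNGAA was in the window of C5ar1 alone (8.55% of promoters), and the NF-kB core GGANTTTCC in none of the 6 (1.26% of promoters). Both strands were searched for each motif. These are matches of letters and not measured sites.

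Total counts ran from 21759300 to 44263400 per library. The libraries stood apart in one respect that touches most of the 8 genes. Xist, an X-silencing transcript of female cells, reached 142 to 637 CPM (counts per 1000000 counts of the library) in 8 libraries, against the label of male mice. It was at most 0.0726 CPM in 1 library of every group: replicate 3 of both blank groups, replicate 2 of R300 WT and replicate 3 of R300 KO. The sum of Y-linked transcripts was 207 to 217 CPM in these 4 libraries, 69.6 to 161 CPM in the other WT libraries and 46 to 70 CPM in the other KO libraries. WT R300 1 and 3, and KO R300 1 and 2, were nearly alike, with a median chi-square per gene of 1.48 and 1.7 against 8.88 to 17.8 for other pairs within a group, so the number of independent samples with R300 may be under 3 a group. Ern1 itself was not lower in libraries labelled KO (140 ± 21.5 CPM in blank and 211 ± 32.4 CPM in R300, SD, n = 3) than in WT (108 ± 12.2 and 182 ± 38.6 CPM). Counts over the whole gene do not test a deleted exon, so the KO label was not checked by them, and each direction below between genotypes rests on that label.

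The macrophages held abundant C1q mRNA, and few counts were assigned to Cfb. On a scale of CPM per kilobase of exon, averaged over 12 libraries, the levels were 621 for C1qb, 401 for C1qa, 228 for C1qc, 217 for Cfp, 121 for C3ar1, 94 for C5ar1, 64.5 for C3 and 1.08 for Cfb. Among 15945 genes with a length, C1qb stood at the percentile 99.6 and C3 at 95.5, whereas Cfb stood at 32.7. The level and percentile of Cfb are as uncertain as its counts, because of the exonic bases shared with Gm20547. Each step in that order held in 12 of 12 libraries except 3. C1qc was above Cfp in 9 libraries, C3ar1 above C5ar1 in 9, and C5ar1 above C3 in 10, so these neighbours overlapped. The overlap of C1qc with Cfp depends on the transcript length used. With longest transcripts in place of all exons, C1qc had a mean of 367 per kilobase (291 to 496), above Cfp (170 to 281). The defining macrophage transcripts Adgre1 (566 to 706 CPM) and Csf1r (1496 to 2270 CPM) were present in all libraries, and the hepatocyte list summed to at most 0.276 CPM.

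**Figure D1:**
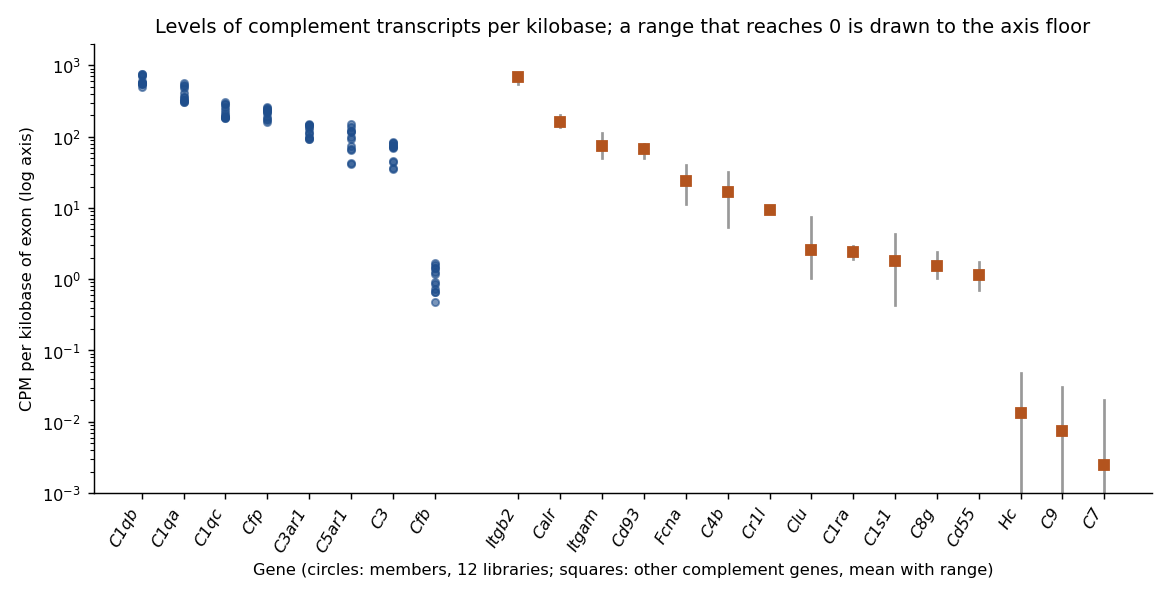
Expression per kilobase of exon on a log axis, for the 8 genes (circles, 12 libraries each) and 15 other complement genes (squares for the mean, lines for the range over libraries; a range that reaches 0 is drawn to the axis floor). C1qb was highest of the 8 at 621 CPM per kilobase and Cfb, whose counts are uncertain, lowest at 1.08.

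Contact with R300-coated platelets was followed by a lower level of 1 of the 8 transcripts, C3ar1. In blank WT cells C3ar1 was 638, 547 and 647 CPM in libraries 1 to 3, and in R300 WT cells 425, 484 and 407 CPM. In cells labelled KO it was 627, 589 and 623 CPM in blank and 397, 405 and 478 CPM in R300. Each of the 6 R300 libraries lay below each of the 6 blank libraries, a pattern that 1.44% of all genes tested showed in that direction.

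The group means of C3ar1 were 611 ± 55.5 and 439 ± 40.7 CPM in WT (SD, n = 3) and 613 ± 21.2 and 427 ± 44.7 CPM in KO. Averaged over genotypes, the log2 difference was -0.50 (SE 0.08, 95% interval -0.68 to -0.32), a level 0.707 times that of blank cells. It passed edgeR's quasi-likelihood test with Benjamini-Hochberg adjustment (adjusted p = 0.00611, lower in 6 of 6 libraries). In this comparison 3.64% of all genes were called, 402 higher and 201 lower. Within a genotype the same gene did not pass: the log2 difference was -0.48 (SE 0.11, adjusted p = 0.129) in WT and -0.52 (SE 0.11, adjusted p = 0.0713) in KO. There 0.623% and 0.834% of genes were called, and none of the 8. The R300 response of C3ar1 differed between genotypes by -0.05 (SE 0.16, 95% interval -0.40 to 0.31, adjusted p = 1), which leaves room for a difference of either sign. Over all genes, 0% were called for that difference by edgeR, with 95 at an unadjusted p under 0.05, and by no alternative, DESeq2 included.

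C3ar1 was lower with R300 also among the 4 libraries that lack Xist. R300 over blank was 0.749 in WT and 0.768 in KO there, each 1 library over 1. With those 4 libraries left out the log2 difference was -0.55 (SE 0.08, adjusted p = 0.00971 by edgeR). The call rests on how the near-alike R300 libraries are counted. With 1 library of each near-alike pair, the log2 difference was -0.46 (SE 0.10, adjusted p = 0.0857), and with the other library of each pair -0.47 (SE 0.10, adjusted p = 0.0832). Among markers, the sum of the macrophage list overlapped between blank (11141 to 19304 CPM) and R300 (12777 to 19530 CPM), with 1 of its 10 genes called, Cd14, which was higher. Adgre1 had a log2 difference of -0.08 (SE 0.08, adjusted p = 0.692) and Csf1r of -0.12 (SE 0.10, adjusted p = 0.645). Cx3cr1, a chemokine receptor of monocytes, fell (13.3 to 31.9 CPM in R300 against 31.7 to 104 CPM in blank, log2 -1.50, SE 0.30, adjusted p = 0.0203). It was 1 of 2 genes called lower of the 12 in the monocyte list, Gpr141 being the other, and 11 of the 12 differences were negative (median log2 -0.26). The exception was Fn1, which makes up nearly all of the list's sum (8388 to 28774 CPM in blank, 8285 to 29312 CPM in R300). The dendritic cell list summed to 24.7 to 44.9 CPM in blank and 49.1 to 68.5 CPM in R300. Its largest gene, Ccr7, a homing receptor, was the 1 gene of 10 called (9.91 to 18.7 against 27 to 47.3 CPM). Over that list 5 differences were positive and 5 negative, with a median of -0.01. For the next 5 lists sums overlapped and no gene was called, but some leaned one way. All 12 B cell genes had a negative difference (median log2 -0.93, sums of 94.3 to 333 CPM in blank and 92.6 to 144 CPM in R300). All 13 mesothelial and fibroblast genes tested had a positive one (median 0.77, 167 to 730 against 214 to 1527 CPM). Neutrophil genes were positive in 2 and negative in 6 (158 to 231 against 131 to 185 CPM), and platelet genes positive in 4 and negative in 3 (52.8 to 106 against 52.6 to 126 CPM). The T and NK list, positive in 4 and negative in 7, was Il7r (162 to 506 against 373 to 589 CPM) with its other genes at means of 1.58 CPM or less. In the eosinophil and mast cell list (18.3 to 69.7 against 46.1 to 95.6 CPM) 3 of 12 genes, Gata2, Mcpt4 and Tpsb2, were called higher. The resident peritoneal macrophage list held no call, with 10 genes positive and 1 negative (median 0.24, 46.3 to 401 against 58 to 433 CPM). In the erythroid list, also without a call, all 5 genes tested were negative (median -0.70, 2.41 to 321 against 6.96 to 111 CPM). The part of these cells in the C3ar1 result was not tested, and in bulk RNA fewer cells of a type cannot be told apart from less RNA per cell.

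**Figure D2:**
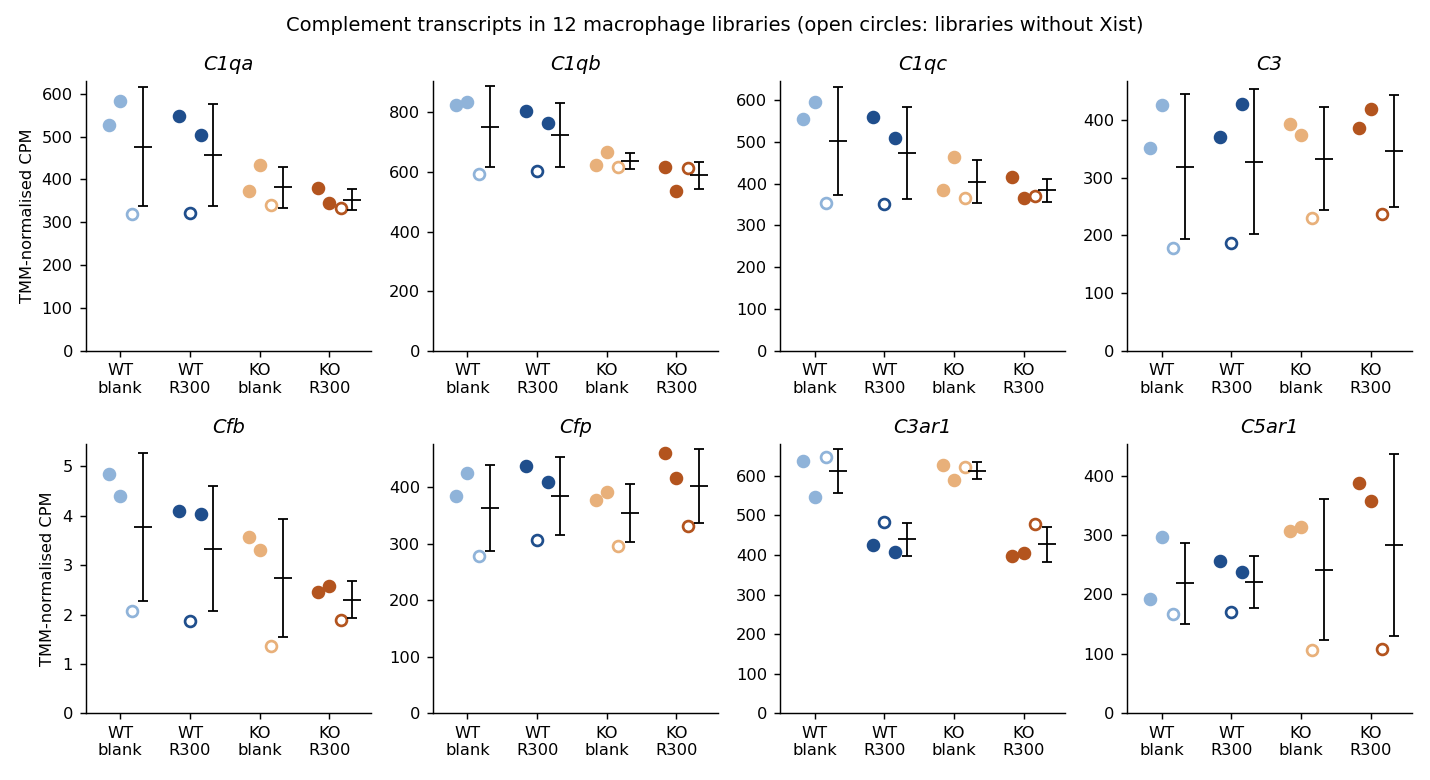
TMM-normalised CPM of the 8 genes in each library, by group, with the group mean ± SD (n = 3) at the right of each group; open circles are the 4 libraries without Xist. C3ar1 lay at 397 to 484 CPM in the R300 libraries and 547 to 647 CPM in the blank ones, whereas the other 7 genes overlapped between treatments.

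C5ar1, the other receptor, gave no call with R300. Its level was 193, 296 and 168 CPM in blank WT libraries and 256, 171 and 237 CPM in those given R300. In KO it was 306, 314 and 106 CPM in blank and 387, 358 and 109 CPM in R300. The groups overlapped, and the log2 difference averaged over genotypes was 0.12 (SE 0.34, 95% interval -0.62 to 0.87, adjusted p = 0.914). That interval covers a fall as large as that of C3ar1.

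The C1q chains did not pass the test with R300 either. Their log2 differences averaged over genotypes were -0.09 for C1qa (SE 0.17, 95% interval -0.45 to 0.28), -0.08 for C1qb (SE 0.11, interval -0.32 to 0.15) and -0.08 for C1qc (SE 0.15, interval -0.41 to 0.25), with adjusted p of 0.868, 0.787 and 0.864 by edgeR. Among the pathway components the log2 difference was 0.05 for C3 (SE 0.27, 95% interval -0.53 to 0.64), -0.22 for Cfb (SE 0.31, interval -0.89 to 0.46) and 0.13 for Cfp (SE 0.14, interval -0.17 to 0.44). In the 4 libraries without Xist, R300 over blank was 0.98 to 1.02 for C1qa, C1qb and C1qc, 1.04 and 1.03 for C3, and 1.1 and 1.12 for Cfp. For Cfb it was 0.9 in WT and 1.37 in KO. Each of these ratios is 1 library over 1. The median log2 difference of the 8 genes was -0.08, with 3 positive and 5 negative, against a median of 0 to 2 decimals over all genes.

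**Figure D3:**
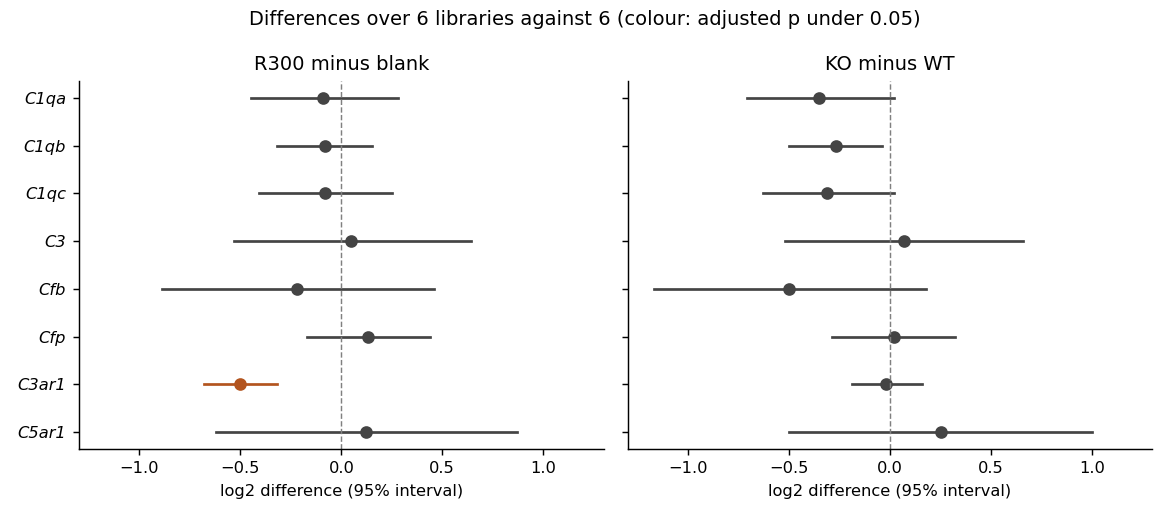
Log2 differences with 95% intervals for R300 minus blank (left, mean over genotypes) and KO minus WT (right, mean over treatments), 6 libraries against 6; colour marks an adjusted p under 0.05. On the left C3ar1 stands at -0.50 with an interval from -0.68 to -0.32, and on the right the 3 C1q chains and Cfb lie below 0 without a call.

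Between genotypes none of the 8 genes passed the test. The C1q chains and Cfb had the largest differences averaged over treatments, whereas in R300 cells alone C5ar1 (log2 0.36, SE 0.48) exceeded C1qb and C1qc (each -0.30). For C1qa, the 3 WT libraries without R300 gave 528, 583 and 319 CPM and those with it 548, 322 and 503 CPM, while libraries labelled KO gave 372, 434 and 340 CPM without and 380, 346 and 333 CPM with R300. C1qb read 826, 834 and 595 CPM in the blank WT group, 805, 604 and 766 CPM in its R300 counterpart, and, under the KO label, 625, 666 and 617 CPM in blank and 618, 536 and 614 CPM in R300. C1qc gave 555, 597 and 354 CPM (blank) and 561, 351 and 510 CPM (R300) in WT, and 385, 463 and 366 CPM (blank) and 416, 367 and 370 CPM (R300) in KO. In each WT group 1 library, the one without Xist, was as low as the KO libraries, so the genotypes overlapped.

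Averaged over treatments, KO minus WT on the log2 scale was -0.35 for C1qa (SE 0.17, 95% interval -0.71 to 0.02), -0.27 for C1qb (SE 0.11, interval -0.50 to -0.04) and -0.31 for C1qc (SE 0.15, interval -0.63 to 0.02). The unadjusted p was 0.0603, 0.0278 and 0.0651, and each adjusted p was 1 by edgeR. Over all genes 0.00604% were called in this comparison, which is 1 gene, Lyz2, and 464 (2.8%) had an unadjusted p under 0.05. Within blank cells and within R300 cells 0% of genes were called between genotypes, with 181 and 324 at an unadjusted p under 0.05. The count of calls over alternatives, DESeq2 among them, was 0 to 2 and 0 to 12.

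The C1q difference stood in the libraries with Xist. Among those 8, which include both near-alike pairs, C1qa was 346 to 434 CPM in KO and 503 to 583 CPM in WT, C1qb 536 to 666 against 766 to 834 CPM, and C1qc 367 to 463 against 510 to 597 CPM. These ranges did not overlap, as was the case for 1.26% of all genes in that direction. With the other 4 libraries left out, the log2 differences were -0.49, -0.40 and -0.44 (SE 0.09, 0.08 and 0.09, adjusted p = 0.375, 0.396 and 0.421 by edgeR). Among the 4 libraries without Xist, the order was the opposite and the gap small, and with 2 libraries against 2 the KO libraries lay above the WT ones in 20.4% of all genes. C1qa lay between 333 and 340 CPM in KO and between 319 and 322 CPM in WT. KO over WT there was 1.05 for C1qa, 1.03 for C1qb and 1.04 for C1qc. Beside it, the Xist level was 453 to 637 CPM in the KO libraries with Xist and 142 to 432 CPM in the WT ones, and Y-linked transcripts summed to 46 to 70 and 69.6 to 161 CPM. The resident peritoneal macrophage list summed to 207 to 433 CPM in those KO libraries and 90 to 139 CPM in those WT libraries. In the macrophage list 1 gene was called, Lyz2 (lysozyme), at 6058 to 7317 CPM in all KO libraries and 12183 to 13522 CPM in all WT ones. Over that list 5 genotype differences were positive and 5 negative, with a median of 0. The part of these differences in the C1q result was not tested.

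C5ar1 ran opposite ways in the libraries with and without Xist, in the other direction to C1q. In the libraries with Xist it was 306 to 387 CPM in KO and 193 to 296 CPM in WT, a lack of overlap that 1.24% of genes showed in that direction. Without Xist its level was 106 to 109 CPM under the KO label and 168 to 171 CPM in WT, an order that 18.6% of all genes showed in these 2 libraries against 2. The log2 difference over all libraries was 0.25 (SE 0.34, 95% interval -0.50 to 1.00, adjusted p = 1 by edgeR). Its size rests on single libraries: with 1 left out it ran from 0.11 (without KO R300 1) to 0.45 (without KO R300 3), and with the libraries without Xist left out it was 0.47.

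The counts of Cfb, the factor B transcript, were low throughout, at 50 to 169 a library, and are uncertain because of the overlap with Gm20547. WT libraries held 4.84, 4.4 and 2.08 CPM of Cfb without R300 and 4.09, 1.87 and 4.03 CPM with R300. Libraries labelled KO held 3.56, 3.3 and 1.36 CPM without R300 and 2.45, 2.58 and 1.88 CPM with it. Among the libraries with Xist, Cfb was 2.45 to 3.56 CPM in KO and 4.03 to 4.84 CPM in WT, a lack of overlap that 1.26% of genes showed in that direction. Without Xist the genotypes overlapped (1.36 to 1.88 against 1.87 to 2.08 CPM). Over all libraries, KO minus WT was -0.50 for Cfb on the log2 scale (SE 0.31, 95% interval -1.17 to 0.18). For C3 the difference was 0.07 (SE 0.27, interval -0.52 to 0.66), for Cfp 0.02 (SE 0.14, interval -0.29 to 0.32) and for C3ar1 -0.02 (SE 0.08, interval -0.19 to 0.16), so of these C3ar1 had the narrowest interval.

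The 4 libraries without Xist were low in most of these genes in all groups. C1qa, C3, Cfb, Cfp and C5ar1, 5 of the 8, were lower in each of the 4 libraries without Xist than in each of the 8 with it, which 5.44% of all genes were. C3 was 179, 187, 230 and 237 CPM without Xist and 352 to 428 CPM with it. Cfp, which is on the X chromosome, was 279 to 331 against 378 to 460 CPM, and C5ar1 106 to 171 against 193 to 387 CPM. The ratio of medians, without over with, was 0.459 for C5ar1, 0.494 for Cfb, 0.535 for C3, 0.7 for C1qa, 0.732 for Cfp, 0.74 for C1qc and 0.851 for C1qb. C1qb and C1qc overlapped between the sets, and C3ar1 was not lower (478 to 647 against 397 to 638 CPM, ratio 1.14). The same 4 libraries held less of the resident macrophage list in sum (46.3 to 64.3 against 90 to 433 CPM). Its largest gene, Prg4, was lower (13.2 to 29.3 against 36 to 269 CPM), as was Icam2. Gata6 (4.15 to 9.83 against 4.24 to 13.8 CPM) and Timd4 of that list overlapped. In the macrophage list Cd68 was higher (1182 to 1521 against 607 to 1075 CPM), and Itgam and Cd163 were lower, each without overlap. These 4 libraries also held less Fn1, which encodes fibronectin (7852 to 10711 against 14168 to 28640 CPM), and less of the erythroid list (2.41 to 9.95 against 59.8 to 321 CPM). Also lower without overlap in the monocyte list, which holds Fn1, were Hp (49.1 to 56.4 against 94.8 to 308 CPM) and F13a1 (89.5 to 113 against 137 to 255 CPM). The rest of that list overlapped, such as Ccr2 (44.3 to 71.3 against 20 to 104 CPM) and Cx3cr1 (24.7 to 48.2 against 13.3 to 104 CPM). The part of these transcripts' cells in the result was not tested.

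**Figure D4:**
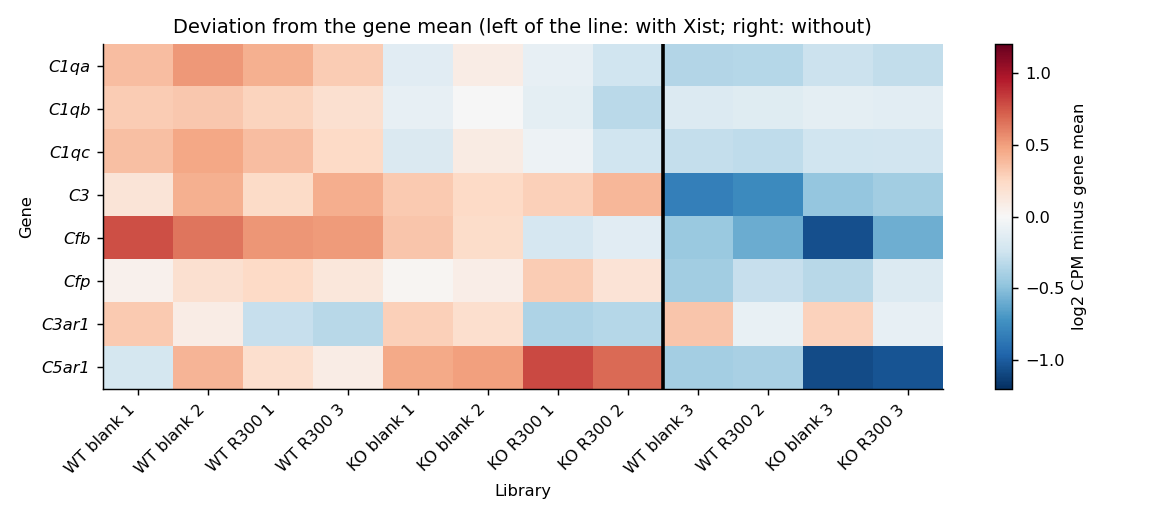
Log2 CPM of each gene minus its mean over the 12 libraries, with the 8 libraries with Xist left of the line and the 4 without it to the right. C1qa, C1qb, C1qc, C3, Cfb, Cfp and C5ar1 were each below their mean in all 4 libraries on the right, whereas C3ar1 was lower with R300 on both sides of the line.

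C1qa and C1qc kept a nearly fixed ratio, and C1qb less so. C1qa over C1qc, in CPM, ran from 0.899 to 0.985 over the 12 libraries (coefficient of variation 3.19%), and C1qb over C1qa from 1.43 to 1.87 (9.84%). C1qb over C1qa was 1.81 to 1.87 in the libraries without Xist and 1.43 to 1.68 in those with it. Pearson's r of log2 CPM over 12 libraries was 1.00 for C1qa with C1qc and 0.95 for C1qb with either. It was 0.99, 0.98 (C1qa with C1qb) and 0.97 (C1qb with C1qc) within the 8 libraries with Xist. C3 and Cfp had an r of 0.93 over 12 libraries but 0.21 within those 8. C3ar1 had an r between -0.56 and 0.07 with the other 7 genes over 12 libraries. With each library taken as its deviation from its group mean, r was negative with all 7, from -0.81 (C3 and Cfp) to -0.49 (C1qb). Within the 8 libraries with Xist, r of C3ar1 ran from -0.78 (Cfp) to 0.52 (Cfb). These correlations are descriptions over libraries that share the split by Xist above and near-alike pairs, and carry no test.

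Among the 12076 genes whose mean count was 50 or more, those most like each member were ranked by the same r, with the 8 complement genes themselves left out of the ranking. Ifi27l2a, an interferon-inducible gene, came first for C1qa (0.92), C1qb (0.91) and C1qc (0.93). It was followed by Unkl (0.92), Folr2 (0.86), a folate receptor of macrophages, and H2-Q7 (0.91), a class I gene of a family with near-identical copies. For C3 these were Cd81 (0.97) and Pdlim7 (0.96), for Cfb Rsl1 (0.95) and Cd5l (0.91), for Cfp Prdx5 (0.99) and Csnk1d (0.98), and for C5ar1 Ephx1 (0.99) and Ap4b1 (0.96). Within the 8 libraries with Xist, Cd81 and Pdlim7 kept an r of 0.61 and 0.25 with C3. C3ar1 was matched by Gm29585 (0.98) and by Slc15a4 (0.97), a histidine and peptide transporter of endolysosomes. Slc15a4 ranged from 31.9 to 76.3 CPM and Gm29585 from 2.87 to 10.2 CPM. Since they were picked for tracking C3ar1 over the same libraries, their lower level with R300 (log2 -0.81 and -1.16) follows from that choice and is no separate result.

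Of 47 other complement genes in 4 lists (classical and lectin pathway, alternative and terminal pathway, regulators, receptors), 42 were matched by symbol and 23 of them passed the filter and were tested. Mbl1, Mbl2, C8b, Vtn and Cpn2 were not analysed here. None of the 23 was called in any of the 7 comparisons. For R300 minus blank, 16 differences were positive and 7 negative, with a median of 0.11, and for KO minus WT 15 were positive and 8 negative, with a median of 0.08. Over all genes tested, 3.64% were called for R300 minus blank and 0.00604% for KO minus WT. With shares this low, the lack of a call among 23 genes does not set them apart from other genes.

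The 4 highest genes of the receptor list were the most abundant of these. Other genes of that list stood at 27.8 CPM per kilobase or less, and 1 of its 9 had a mean under 1 CPM. Itgb2, the shared β chain of complement receptors 3 and 4, stood at 685 CPM per kilobase (1696 to 2418 CPM), and Itgam, the α chain of receptor 3, at 74.9 (250 to 569 CPM). Calr, which encodes calreticulin, a chaperone that also binds C1q, stood at 163 per kilobase. Cd93, once described as a C1q receptor, stood at 66.7 per kilobase. Its level was 332 to 449 CPM in the blank libraries and 466 to 534 CPM in the R300 libraries, without overlap, as in 2.57% of all genes tested in that direction. The log2 difference of Cd93 was 0.33 (SE 0.09), the one with the lowest adjusted p among the 23 (0.0713 by edgeR).

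Among the regulators Cr1l, the rodent membrane regulator Crry, stood at 9.41 CPM per kilobase (93.9 to 103 CPM), and its log2 difference with R300 was 0.04 (SE 0.05). Clu (2.58 per kilobase) and Cd55 (1.14 per kilobase), a soluble and a membrane regulator, were lower. In the classical and lectin list Fcna, a ficolin of macrophages, stood at 24 per kilobase and C4b at 16.6. Both were low in the libraries without Xist: Fcna was 15.5 to 19.3 against 28.9 to 54.3 CPM, and C4b 30.8 to 41.5 against 61.4 to 180 CPM. C4b has a near-identical copy, C4a, so its counts are uncertain. The C1 proteases C1ra and C1s1 stood at 2.43 and 1.82 per kilobase. Of the terminal pathway C8g was at 1.51 per kilobase, and Hc (the C5 gene), C9 and C7 each had a mean under 0.1 CPM. Cfd, the protease that cleaves factor B, had 0 counts in all 12 libraries, as did C6 and Colec10. A count of 0 allows up to 3 counts, which is 0.0693 to 0.13 CPM depending on the library, for counting error only.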

How the data were processed

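Messenger RNA was enriched on oligo(dT) beads and made into NEBNext Ultra libraries, per the labels' protocols. The submitters' processing notes name mm10, HISAT2 (version 2), featureCounts 2.0.3, fastp 0.23.4, FastQC 0.12.1 and DESeq2 1.42.0. The authors deposited unnormalised read counts for each symbol in 35050 rows, identical to the 12 sample files. The 102 rows without a symbol (0.0232% to 0.0328% of counts) were left out, and another 18 symbols had more than 1 row. The strand setting is not given in the sources used here.

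Counts were fitted with edgeR 4.0.16 in R 4.3.3 (TMM, filterByExpr, robust quasi-likelihood, 4 group means, 12 libraries, 7 comparisons). Benjamini-Hochberg adjusted p under 0.05 over 16546 genes was called, and the common biological coefficient of variation was 0.267. CPM are TMM-normalised, except those of Xist and Y-linked genes, which are per total count. Lengths are from GENCODE exons on GRCm38. Named genes are the 8 members, the 4 highest other complement genes per kilobase in each of 4 lists, and the 2 genes most like each member. The result of 1 gene that the rule names is not reported here. The called marker genes, and the marker genes named for the split by Xist, were named after their values were seen. The members and lists were chosen with earlier results of these data known. Markers came from 12 cell type lists. In simulated data for R300 minus blank (16247 genes) 32% of genes changed by 0.5 on the log2 scale and 84% of those changed by 1 were recovered, and 10 of 16047 unchanged genes were called. Simulated libraries were drawn independently around a common mean profile, and the changed genes had a mean count of 50 or more. Near-alike pairs and the split by Xist were not simulated, so these rates need not hold for the real libraries. Alternatives were DESeq2, other size factors, no filter, a replicate block, fits of 2 groups alone, a term for or removal of the 4 libraries without Xist, 1 library of each near-alike pair, and each library left out.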

Additional observations from a re-analysis of the deposited data

Results flagged for a closer look

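In 4 of the 8 genes the difference between libraries labelled KO and WT ran one way in every library with Xist and the opposite way in every library without it, as it did in 0.387% of all genes tested. The difference between these sets was not tested, the sets were defined from the data, and the set without Xist holds 2 libraries of each genotype. KO over WT was 0.709 with Xist and 1.05 without for C1qa, 0.757 and 1.03 for C1qb, 0.734 and 1.04 for C1qc, and 1.39 and 0.633 for C5ar1. The 3 C1q chains moved together and are not separate evidence.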

How the results depend on the processing

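The lower C3ar1 level with R300 averaged over genotypes was called in 19 of 21 alternatives (log2 -0.56 to -0.46), including all 12 that left out 1 library (-0.55 to -0.47, adjusted p = 0.004 to 0.0268 by edgeR). The count of members called fell from 1 to 0 with 1 library of each near-alike R300 pair (C3ar1 -0.46), and with the other library of each pair, an alternative chosen after seeing the data (C3ar1 -0.47); fewer libraries were then tested. With a replicate block the value was -0.50 (adjusted p = 0.0123). Of 18 pairs of libraries with the same number, 10 had correlated deviations over 0.1 (range -0.599 to 0.608). Pairs with unlike numbers ranged from -0.593 to 0.642. The numbers were not taken to pair libraries, and these values do not settle whether they do. Within WT the count rose from 0 to 1 (C3ar1) with DESeq2 (adjusted p = 0.00545) and with a term for the libraries without Xist (0.0147). Within KO it rose from 0 to 1 (C3ar1) with DESeq2 (0.00149), library totals (0.0486), no filter (0.0496) and the Xist term (0.00762), and was 0 to 1 when a library was left out, called without KO R300 3 (-0.62, adjusted p = 0.0397).

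Other members stayed uncalled, and small differences changed sign. C3 with R300 was -0.14 and -0.04 with either library of the near-alike pairs, and C5ar1 -0.08 with the other one; KO minus WT was -0.01 for Cfp with the libraries without Xist left out and 0.01 for C3ar1 with the other library of each pair. With 1 library left out, R300 minus blank ran from -0.20 to 0.01 for C1qa, -0.18 to 0.01 for C1qc, -0.09 to 0.19 for C3 and -0.07 to 0.31 for C5ar1. KO minus WT ran from -0.07 to 0.20 for C3, -0.06 to 0.08 for Cfp and -0.06 to 0.02 for C3ar1. For C3ar1 it ran from -0.07 to 0.05 in blank and -0.13 to 0.04 in R300, and the difference of responses from -0.14 to 0.03.

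Over all genes, calls for R300 minus blank ranged over alternatives from 140 to 1492 (603 as reported), with 27 to 347 for WT (103 as reported) and 34 to 450 for KO (138), while KO minus WT gave 0 to 48 (1). With library totals the R300 calls split into 339 higher and 345 lower. Cfb is limited by its counts.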
